A study of Homo sapiens with 6 samples.

Results

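The nuclear pore is a ring of nucleoporins set in the nuclear envelope, and the importins and exportins are the receptors that carry proteins and RNA through it. The genes described here were those whose symbol begins with NUP and a digit, KPNA, KPNB, IPO, TNPO or XPO and that GENCODE 29 lists as protein-coding. The name pattern found 47 such genes among the 28495 in the table: 23 pore subunit genes, 18 import receptor genes and 6 export receptor genes. Another 19 names that fit the pattern were pseudogenes or antisense and divergent transcripts and were left out. RNA was measured in NCI-H1299, an established human cell line that the labels call lung adenocarcinoma, in 3 sh-CFB libraries (complement factor B silenced) and 3 sh-NC control libraries. The labels name no other treatment of either group. The titles name short hairpins, whereas the table's columns are named as for siRNA, and no label gives the construct, the number of clones or whether the replicates were separate cultures. P-values therefore measure only the spread between these libraries, which may be technical.

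Transport works as a cycle. Importins of the beta type bind cargo in the cytoplasm, directly or through an importin alpha adaptor, pass the unstructured repeats of the channel nucleoporins and release the cargo when they meet Ran bound to GTP in the nucleus. Exportins run the other way, holding cargo together with RanGTP until the GTP is hydrolysed on the cytoplasmic side. Dividing cells take their pores apart at mitosis and rebuild them in the daughter nuclei, and they also insert additional pores as the nucleus grows.

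The silenced gene could check the labels only weakly. CFB had 0, 0 and 2 reads in sh-CFB replicates 1 to 3, that is 0, 0 and 0.0110 FPKM, against 1, 6 and 5 reads in sh-NC replicates 1 to 3 (0.00536, 0.0317 and 0.0321 FPKM). FPKM relates the fragments of a gene to its length and to the depth of the library. All 3 sh-CFB values lay at or under a floor of 3 reads, and a two-sided exact permutation test gave p = 0.2. With 3 libraries against 3 that test cannot go below 0.1. Of 10 markers of the line and its epithelial origin, KRT8, KRT18, KRT7 and VIM were measured above a mean of 0.5 FPKM, while EPCAM, CDH1, KRT19, NAPSA, SFTPB and NKX2-1 were below it. Markers of immune cells, fibroblasts, endothelial cells and erythroid cells reached at most 0.275 FPKM in any library. Their summed level ranged, for sh-CFB against sh-NC libraries, over 0.00832 to 0.0174 against 0 to 0.0758 FPKM for immune cells. For fibroblasts it was 0.213 to 0.295 against 0.249 to 0.329 FPKM, for endothelial cells 0.0717 to 0.175 against 0.133 to 0.196 FPKM, and for erythroid cells 0 to 0.143 against 0 to 0.121 FPKM.

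The read totals implied by the FPKM values were 26.2, 33.4 and 38.4 M for the 3 sh-CFB libraries and 39.4, 40.0 and 32.9 M for the 3 sh-NC libraries. Both libraries numbered 1 stood apart for these genes. Of the 42 genes that could be tested, 38 had their lowest value in sh-CFB replicate 1, the shallowest library, and 35 had their highest in sh-NC replicate 1. Counts below are therefore also given without both of those libraries.

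Of the 42 tested transport genes, 41 had a negative log2 fold change in sh-CFB over sh-NC cells, most of them too small for their error to pass the test, and 67.7% of all tested genes had one too. At an adjusted p under 0.05, 6 of the 42 tested genes fell, 36 did not pass and none rose. Those that fell were KPNA2, IPO9 and XPO5 among the receptors and NUP188, NUP93 and NUP85 among the pore subunits, by limma on log2(FPKM + 0.5) with Benjamini-Hochberg adjustment over 12466 genes with a mean of at least 0.5 FPKM. The 6 make up 14.3% of those tested, and over all tested genes 5.71% fell and 1.74% rose. At an unadjusted p under 0.05, 20 were lower and none higher, beside 18.6% lower and 7.28% higher over all tested genes. Over the 42 genes log2 fold changes ran between -0.93 and 0.07 with a median of -0.47, and the median over all tested genes was -0.15. Without both replicate 1 libraries KPNA2, NUP188, NUP93 and NUP85 fell, beside 4.24% of all genes. A model of the reads recovered behind the FPKM values (voom) called KPNA2, NUP188, IPO9 and XPO5 lower and none higher, beside 2.21% of all genes lower. None of the 42 passed without sh-CFB replicate 2 or without sh-NC replicate 2, when 31 and 14 of all genes fell. In RNA from whole cultures, fewer cells of one kind and less RNA per cell cannot be told apart.

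**Figure D1:**
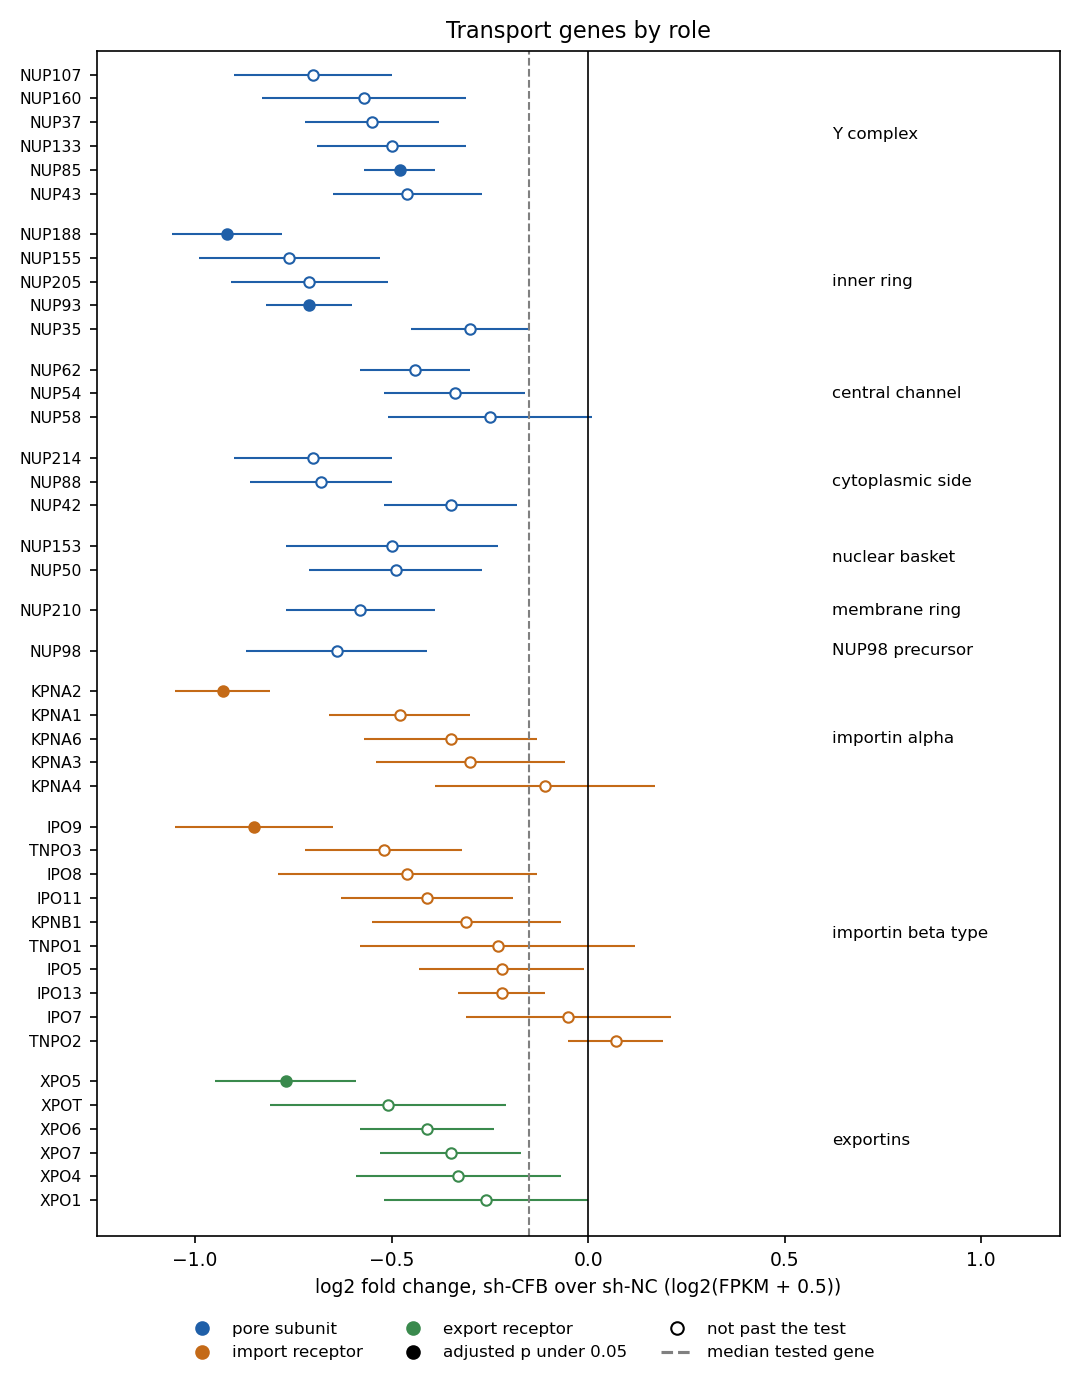
Log2 fold change of sh-CFB over sh-NC on log2(FPKM + 0.5) for the 42 tested transport genes, with its standard error as a bar, grouped by role. Filled points passed an adjusted p of 0.05, and the dashed line is the median of all tested genes at -0.15. All 21 pore subunits lie left of that line, and TNPO2 alone lies right of 0.

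The 6 genes that fell are shown with the 150 bases before their RefSeq start, since they alone passed the test. The sequences are from RefSeq on GRCh38.p14, each read 5′ to 3′ on the gene's own strand, and capitals mark CCAAT or its reverse complement ATTGG. They cover chr17:68035585-68035734 on the plus strand for KPNA2, chr9:128947549-128947698 on the plus strand for NUP188, chr1:201829007-201829156 on the plus strand for IPO9, chr6:43576039-43576188 on the minus strand for XPO5, chr16:56729979-56730128 on the plus strand for NUP93 and chr17:75205529-75205678 on the plus strand for NUP85. RefSeq and GENCODE 29 place most of these starts differently: all 150 bases shown for KPNA2, and 16 for IPO9, 37 for XPO5, 24 for NUP93 and 20 for NUP85, lie inside the gene as GENCODE 29 draws it.
KPNA2: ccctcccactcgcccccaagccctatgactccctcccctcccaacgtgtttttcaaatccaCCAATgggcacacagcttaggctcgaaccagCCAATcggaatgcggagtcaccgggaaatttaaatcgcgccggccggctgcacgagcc
NUP188: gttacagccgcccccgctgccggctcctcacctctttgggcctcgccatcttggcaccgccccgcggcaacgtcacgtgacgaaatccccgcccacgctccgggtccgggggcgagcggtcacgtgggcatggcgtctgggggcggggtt
IPO9: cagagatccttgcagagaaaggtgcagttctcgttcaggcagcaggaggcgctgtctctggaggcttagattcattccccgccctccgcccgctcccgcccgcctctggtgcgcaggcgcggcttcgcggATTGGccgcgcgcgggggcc
XPO5: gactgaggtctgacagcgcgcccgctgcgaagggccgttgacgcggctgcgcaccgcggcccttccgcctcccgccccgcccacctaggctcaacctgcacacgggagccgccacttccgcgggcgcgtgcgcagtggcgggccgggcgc
NUP93: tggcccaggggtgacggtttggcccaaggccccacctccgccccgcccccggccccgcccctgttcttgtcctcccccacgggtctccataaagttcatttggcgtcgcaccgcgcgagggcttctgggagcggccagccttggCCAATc
NUP85: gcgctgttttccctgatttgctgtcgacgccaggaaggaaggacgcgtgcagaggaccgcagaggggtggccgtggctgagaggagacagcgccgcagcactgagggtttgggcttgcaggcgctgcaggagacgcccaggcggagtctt

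KPNA2 held CCAAT 2 times, IPO9 and NUP93 held it once, and NUP188, XPO5 and NUP85 did not hold it in these 150 bases. All 6 stretches were rich in G and C, between 60.0% in KPNA2 and 77.3% in XPO5. In a longer window, 250 bases before to 50 after the start, 41 of the 47 genes had a RefSeq entry and 38 of these were tested. Letters were searched on both strands for 8 motifs and compared with the 9015 tested genes that had such a window. CCAAT was present in 19 of 38 windows, against 36.9% of those of tested genes, with 10 of 20 pore windows and 9 of 18 receptor windows. The letters GCGGGAA or GCGCGAA, of the type bound by E2F factors, were in 28.9% against 14.9%, and TTTGAA or TTCGAA, the core of the cell cycle homology region, in 21.1% against 10.3%. GGGCGG, the GC box, was in 52.6% against 73.3%. CACGTG was in 13.2% against 10.8%, CCGGAAGT in 13.2% against 9.5%, TGACGTCA in 7.9% against 3.5% and the NRF1 site in 7.9% against 2.6%. The last 2 of these were found in 3 pore windows each and in no receptor window. Neighbouring matches of different motifs can share bases, and a match is a description of the letters, not a site.

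All 21 tested pore subunits had a negative fold change, as the plot of fold changes by role shows, and NUP58 alone turned sign in a setting tried, at 0.13 without both replicate 1 libraries. Of 21 tested, 3 fell and 18 did not pass, the median log2 fold change was -0.55, and it lay 0.40 below the median tested gene. In 17 of the 21, or 81.0%, all 3 sh-CFB libraries lay below all 3 sh-NC libraries, beside 23.6% of all tested genes. Of the 21 receptors tested, 3 fell, the median log2 fold change was -0.35 and 6, or 28.6%, showed no overlap, a share near that of all genes. Import receptors had a median of -0.31 with no overlap in 5 of 15, and export receptors -0.38 with no overlap in 1 of 6. The direction of a fold change was negative in 21 of 21 pore subunits, 14 of 15 import receptors and 6 of 6 export receptors, beside 67.7% of all tested genes. The difference between the classes was not tested.

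The inner ring, the scaffold that lines the central opening, had 2 of its 5 genes fall. Its median log2 fold change was -0.71, and the groups did not overlap in any of the 5. Beside this and the counts by role that follow, 5.71% of all tested genes fell and 23.6% showed no overlap. The groups also did not overlap in 5 of the 6 Y complex genes and in all 3 on the cytoplasmic side. NUP188 (ENSG00000095319, chr9:128947699-129007096 in GENCODE 29 on GRCh38), one of the largest scaffold subunits, was at 7.37, 9.11 and 8.09 FPKM in sh-CFB replicates 1, 2 and 3, against 17.8, 16.9 and 13.2 FPKM in sh-NC replicates 1, 2 and 3. Every sh-CFB library was below every sh-NC library, with the nearest pair well apart. It fell 1.89-fold (log2 fold change -0.92, SE 0.14, limma adjusted p = 0.0150). NUP93 (ENSG00000102900, chr16:56730105-56850286), which anchors the other inner ring subunits, was at 6.18, 6.65 and 7.0 FPKM in sh-CFB and 10.8, 11.1 and 11.4 FPKM in sh-NC libraries. Both groups were tight and did not overlap. The gene fell 1.64-fold (log2 fold change -0.71, SE 0.11, limma adjusted p = 0.0135). NUP155, NUP205 and NUP35 had log2 fold changes of -0.76, -0.71 and -0.30 and did not pass. NUP35 was among the least abundant of the tested pore subunits, at 0.529 ± 0.0703 FPKM in sh-CFB and 0.770 ± 0.0648 FPKM in sh-NC cells (SD, n = 3 each).

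The Y complex builds the outer rings on both faces of the pore. One of its 6 genes in the pattern fell, NUP85 (ENSG00000125450, chr17:75205659-75235758), a short-arm subunit. NUP85 was at 14.9, 16.2 and 15 FPKM in sh-CFB libraries and 20.6, 22.1 and 22.2 FPKM in sh-NC libraries. The spread within each group was small beside the gap between them. It fell 1.40-fold (log2 fold change -0.48, SE 0.09, limma adjusted p = 0.0272), the smallest change among the 6 genes that fell. NUP107, NUP160, NUP37, NUP133 and NUP43 did not pass, with log2 fold changes between -0.70 and -0.46. Of these, NUP160 alone had overlapping groups.

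No central channel gene passed the test. NUP62, the most abundant of the 3 central channel genes, whose protein carries the repeats that receptors bind, was at 7.85, 8.67 and 10.7 FPKM in sh-CFB and 11.9, 11.9 and 13.3 FPKM in sh-NC libraries (log2 fold change -0.44, SE 0.14, limma adjusted p = 0.0929). Its groups were separate by a small margin. NUP58, a partner of NUP62, had the fold change nearest 0 of all pore genes, with 1.87, 2.86 and 2.90 FPKM in sh-CFB and 4.32, 3.12 and 2.12 FPKM in sh-NC libraries (log2 fold change -0.25, SE 0.26, limma adjusted p = 0.577). Here the groups overlapped, sh-NC replicate 3 lying below sh-CFB replicates 2 and 3. NUP54, the third channel subunit, had a log2 fold change of -0.34 and did not pass either.

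On the cytoplasmic side NUP214, which serves as a platform for export complexes, was at 1.46, 2.04 and 2.03 FPKM in sh-CFB and 3.84, 3.58 and 2.56 FPKM in sh-NC libraries (log2 fold change -0.70, SE 0.20, limma adjusted p = 0.0704). The groups did not overlap, as was also the case for its partner NUP88 and for NUP42, whose log2 fold changes were -0.68 and -0.35. In the nuclear basket, NUP153 was at 3.42, 6.32 and 6.79 FPKM in sh-CFB and 9.80, 8.05 and 5.74 FPKM in sh-NC libraries (log2 fold change -0.50, SE 0.27, limma adjusted p = 0.296). Its groups overlapped because sh-NC replicate 3 was low, whereas those of NUP50, a mobile basket partner that helps to free importin alpha, did not. NUP210, a glycoprotein of the pore membrane, was at 7.68, 10.2 and 9.82 FPKM in sh-CFB and 17.4, 14.5 and 10.8 FPKM in sh-NC libraries (log2 fold change -0.58, SE 0.19, limma adjusted p = 0.103). The lowest sh-NC library lay just above the highest sh-CFB library. At an unadjusted p under 0.05, 1 of the 3 central channel genes, 2 of the 3 on the cytoplasmic side, neither of the 2 basket genes and NUP210 were lower. Over all tested genes 18.6% were lower at that threshold, and so few genes per role allow no comparison between roles.

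NUP98 makes a precursor protein that is cut into the mobile nucleoporin NUP98 and the Y complex subunit NUP96. It was at 3.39, 5.23 and 5.17 FPKM in sh-CFB and 9.31, 7.86 and 5.32 FPKM in sh-NC libraries (log2 fold change -0.64, SE 0.23, limma adjusted p = 0.139). The groups were separate only by the narrow gap between sh-CFB replicate 2 and sh-NC replicate 3.

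Among the importin alpha adaptors, which bind the classical nuclear localisation signal, 1 of 5 tested genes fell. KPNA2 (ENSG00000182481, chr17:68035519-68046842), the most abundant of them, was at 11.6, 13.3 and 15.2 FPKM in sh-CFB and 25.2, 25.3 and 27.0 FPKM in sh-NC libraries. The 3 sh-NC values were almost the same and far above all sh-CFB values. It fell 1.91-fold (log2 fold change -0.93, SE 0.12, limma adjusted p = 0.0106), the lowest fold change of all 42 genes. KPNA1, KPNA6, KPNA3 and KPNA4, which bind overlapping sets of cargo, had log2 fold changes of -0.48, -0.35, -0.30 and -0.11 and did not pass. The length behind the FPKM values of KPNA2 was 7365 bases, against 3140 bases of exon in GENCODE 29, so its level is understated beside other genes, while the length cancels in its fold change but for the pseudocount. The same held for KPNA4 (13643 against 9413 bases), KPNB1 (10305 against 7678) and XPO1 (23843 against 11708).

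Importins of the beta type split widely, from IPO9 at -0.85 to TNPO2 at 0.07 on the log2 scale, with a median of -0.27. IPO9 (ENSG00000198700, chr1:201829141-201884294), an import receptor for histones H2A and H2B, was at 2.15, 2.91 and 3.24 FPKM in sh-CFB and 6.68, 5.29 and 4.26 FPKM in sh-NC libraries. No sh-CFB library reached the lowest sh-NC library. It fell 1.80-fold (log2 fold change -0.85, SE 0.20, limma adjusted p = 0.0475), close to the threshold, and without both replicate 1 libraries its log2 fold change was -0.56 with a limma adjusted p of 0.0846. IPO7, an importer of ribosomal proteins and the most abundant of all 47 genes per length as deposited, was at 23.2, 37.4 and 34.1 FPKM in sh-CFB and 42.6, 35.4 and 21.9 FPKM in sh-NC libraries. The groups overlapped fully, with the lowest sh-NC library under every sh-CFB library. Its log2 fold change was -0.05 (SE 0.26, limma adjusted p = 0.922), and the sign turned under most other scalings.

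TNPO2, a close relative of transportin TNPO1, which imports RNA-binding proteins, had the highest fold change of the 42, with 23.0, 25.4 and 25.6 FPKM in sh-CFB and 26.0, 24.4 and 20.5 FPKM in sh-NC libraries (log2 fold change 0.07, SE 0.12, limma adjusted p = 0.765). Values of both groups were interleaved, and the sign turned without sh-NC replicate 3. KPNB1, the carrier that works with importin alpha, averaged 19.0 ± 4.91 FPKM in sh-CFB and 23.6 ± 6.11 FPKM in sh-NC cells (SD, n = 3 each) and did not pass (limma adjusted p = 0.464). TNPO3, which imports SR splicing factors, and IPO13, which both imports and exports cargo, had log2 fold changes of -0.52 and -0.22 with no overlap between groups, and did not pass. IPO8, IPO11, TNPO1 and IPO5 lay between -0.46 and -0.22, with overlapping groups.

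Of the 6 exportins, XPO5 fell. XPO5 (ENSG00000124571, chr6:43522330-43576075), which exports microRNA precursors, was at 5.08, 6.61 and 6.65 FPKM in sh-CFB and 12.8, 11.3 and 8.58 FPKM in sh-NC libraries. The lowest sh-NC library was still above all sh-CFB libraries. It fell 1.71-fold (log2 fold change -0.77, SE 0.18, limma adjusted p = 0.0416), and without both replicate 1 libraries its log2 fold change was -0.54 with a limma adjusted p of 0.0840. XPO6, the exporter of actin and the most abundant exportin, was at 8.07, 9.16 and 10.2 FPKM in sh-CFB and 14.9, 13.0 and 9.59 FPKM in sh-NC libraries (log2 fold change -0.41, SE 0.17, limma adjusted p = 0.182). XPO1, the main exporter of proteins with a leucine-rich signal, was at 1.94, 3.30 and 3.56 FPKM in sh-CFB and 4.58, 3.60 and 2.58 FPKM in sh-NC libraries (log2 fold change -0.26, SE 0.26, limma adjusted p = 0.575). In both, sh-NC replicate 3 lay within the sh-CFB values. XPOT, the exporter of tRNA, XPO7 and XPO4 had log2 fold changes of -0.51, -0.35 and -0.33, with overlapping groups.

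**Figure D2:**
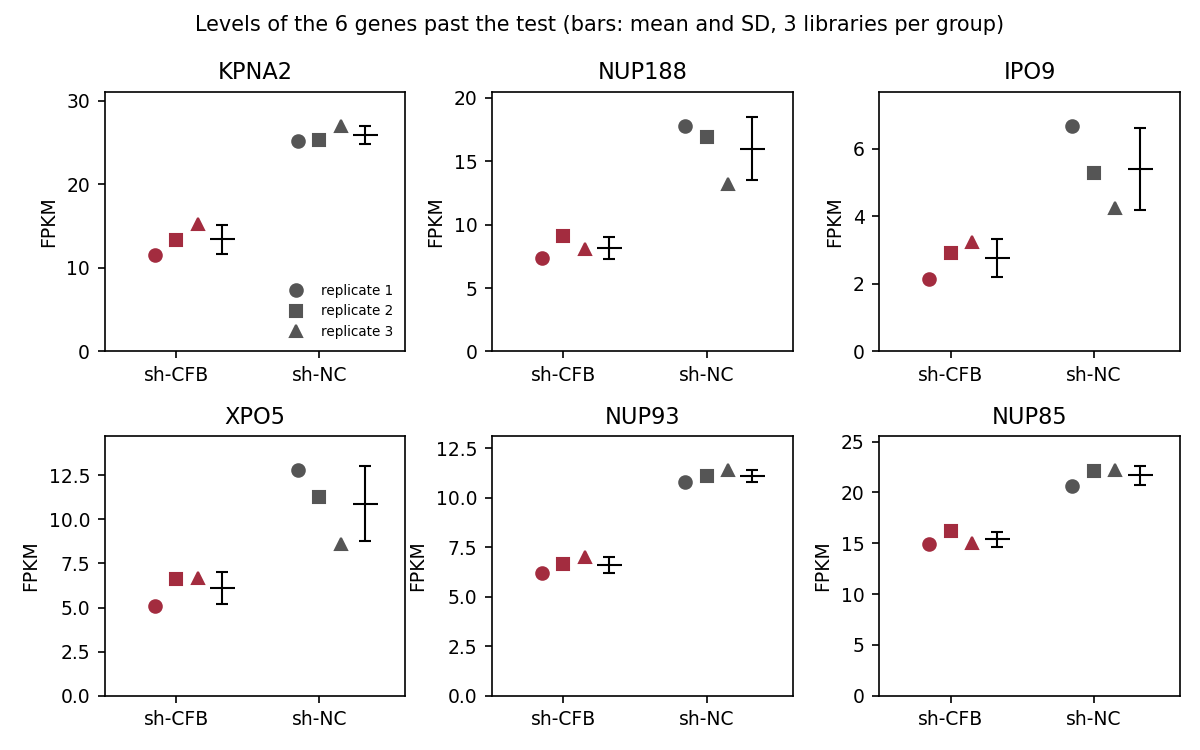
FPKM per library of the 6 genes past the test, sh-CFB left and sh-NC right in each panel, with the mean and SD of 3 libraries beside the points and every axis starting at 0. No sh-CFB point reaches a sh-NC point in any panel. KPNA2, NUP93 and NUP85 have tight sh-NC groups, while in NUP188, IPO9 and XPO5 sh-NC replicate 3 is the lowest control.

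A mean under 0.5 FPKM kept 5 of the 47 genes out of the test. NUP210L, a relative of NUP210, had 0, 2 and 0 reads in sh-CFB and 2, 0 and 1 reads in sh-NC libraries, all under the floor of 3 reads. KPNA7, an importin alpha of the egg and early embryo, had 2, 4 and 8 reads in sh-CFB and 3, 0 and 2 reads in sh-NC libraries (0.0385, 0.0604 and 0.105 against 0.0384, 0 and 0.0306 FPKM). Every sh-CFB value was above every sh-NC value, though the nearest pair differed by less than 1 read is worth, and the two-sided exact permutation test gave p = 0.1, the smallest it can give. IPO4 had 8, 3 and 13 reads in sh-CFB and 10, 17 and 6 reads in sh-NC libraries. In GENCODE 29, 69.3% of its exon bases lie on the same strand as exons of AL136295.4, and reads that fit both genes may have gone uncounted, so its level is uncertain. KPNA5 ranged over 0.220 to 0.467 FPKM in sh-CFB and 0.221 to 0.515 FPKM in sh-NC libraries, and NUP62CL over 0.204 to 0.349 FPKM in sh-CFB and 0.260 to 0.475 FPKM in sh-NC libraries, with overlap in both.

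The libraries differed within groups in the same direction for most of these genes. Summed over all 47 genes, the level was 224, 306 and 316 FPKM in sh-CFB replicates 1, 2 and 3 and 447, 393 and 317 FPKM in sh-NC replicates 1, 2 and 3. The highest sh-CFB sum was thus just under the lowest sh-NC sum. Pore genes kept apart, with 78.0, 103 and 104 FPKM in sh-CFB and 163, 149 and 129 FPKM in sh-NC libraries. Import receptor sums overlapped, with 118, 166 and 172 FPKM in sh-CFB and 223, 193 and 151 FPKM in sh-NC libraries. So did export receptor sums, with 27.4, 37.4 and 39.4 FPKM in sh-CFB and 61.0, 51.3 and 37.0 FPKM in sh-NC libraries. Without both replicate 1 libraries the median log2 fold change was -0.31 for pore subunits, 0.09 for import receptors and -0.06 for export receptors, beside 0.00 for all tested genes. The pore median thus stayed below that of all genes, and the import median changed sign. Most of these genes had their lowest value in sh-CFB replicate 1 and their highest in sh-NC replicate 1. An upward shift of their fold changes was therefore built into the choice of libraries left out.

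**Figure D3:**
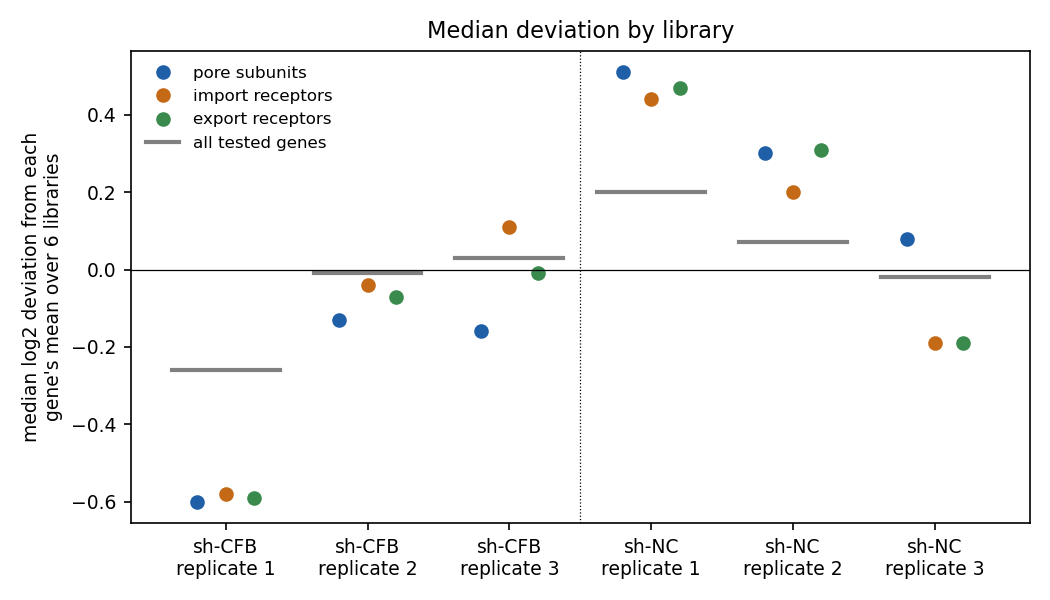
Median log2 deviation of each class from each gene's mean over 6 libraries, by library, with the median of all tested genes as a grey bar. In sh-CFB replicate 1 the 3 classes lie between -0.60 and -0.58, in sh-NC replicate 1 between 0.44 and 0.51. Pore subunits are below the grey bar in every sh-CFB library and above it in every sh-NC library, whereas receptors are below it in sh-NC replicate 3.

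The median tested gene also deviated in these 2 libraries, by -0.26 in sh-CFB replicate 1 and 0.20 in sh-NC replicate 1, less than the median of each transport class. The same libraries also differed by base composition. Over 12397 genes with a GC value, Spearman's rho between GC content and deviation from each gene's mean was 0.60 in sh-CFB replicate 1 and -0.55 in sh-NC replicate 1. It ran from -0.25 to 0.23 in the other libraries. Over the 42 transport genes it was 0.10 and 0.02 in the replicate 1 libraries and -0.59 to 0.38 in the others. Between log2 fold change and GC content, rho was 0.31 over the 12397 genes and -0.39 over the 42. All are descriptions across genes of the same libraries. The median GC content of the 42 genes was 43.5%, against 49.3% for all tested genes, and their median exon length was 7.51 kb, against 4.38 kb.

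After a correction of each library for GC content and length, 9 of the 42 genes fell and none rose, beside 6.07% of all genes lower. These were NUP188, NUP155, NUP205, NUP210, NUP214 and NUP88 among the pore subunits, IPO9 and KPNA2 among the import receptors, and XPO5. NUP93 and NUP85 no longer passed, with log2 fold changes of -0.42 and -0.25 and limma adjusted p-values of 0.125 and 0.149. The medians were then -0.35 for pore subunits, -0.08 for import receptors and -0.21 for export receptors, beside 0.01 for all tested genes. Before the correction, which also re-centred each library, the median of all tested genes was -0.15. KPNA2 had a corrected log2 fold change of -0.64 (limma adjusted p = 0.0105) and NUP188 of -0.71 (limma adjusted p = 0.0101).

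**Figure D4:**
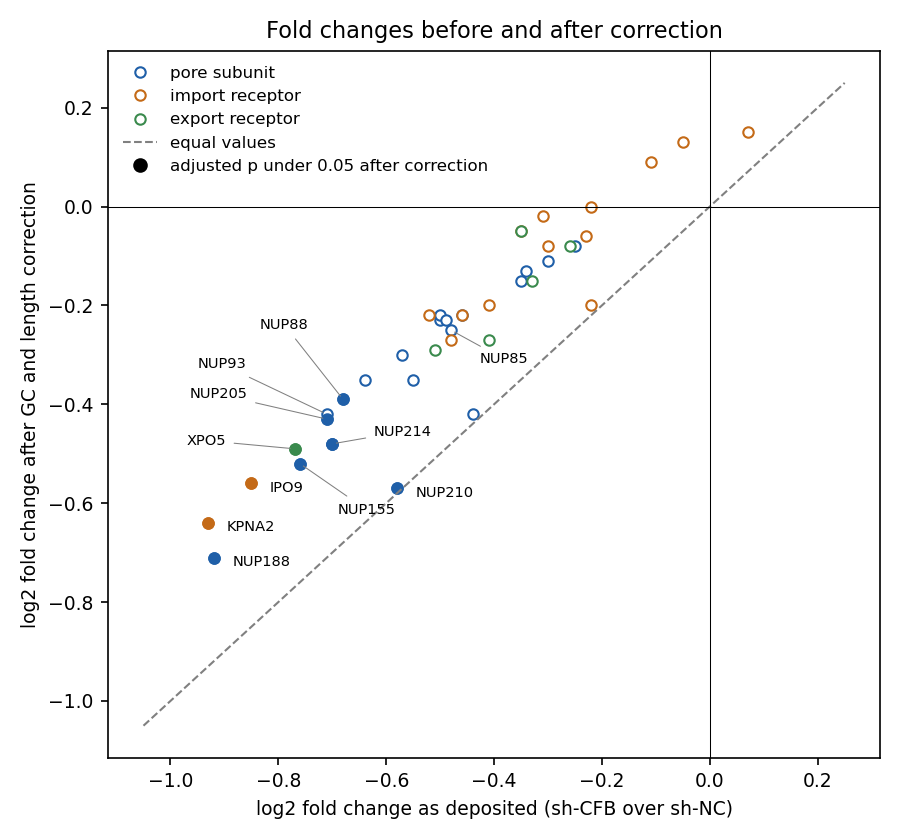
Log2 fold change of sh-CFB over sh-NC for the 42 tested genes as deposited (horizontal axis) and after correction for GC content and length (vertical axis). Filled points passed an adjusted p of 0.05 after correction, labelled points before or after it, the dashed line marks equal values, and NUP107, which did not pass, lies under NUP214. Most points lie above the line, that is nearer 0 after correction, and KPNA2 and NUP188 stay lowest on both axes. The correction also re-centred each library, so part of this shift is common to all genes. The median of all tested genes moved from -0.15 to 0.01.

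Genes of the same machinery whose names lie outside the pattern fell or did not pass. Beside the lists that follow, 5.71% of all tested genes fell, and the median log2 fold change of all tested genes was -0.15. Of 11 other pore genes 3 fell, with a median log2 fold change of -0.44. The 3 were POM121C, a membrane nucleoporin (log2 fold change -0.77), RAE1, an mRNA export factor bound to NUP98 (-0.69), and GLE1, which activates the helicase that strips proteins from exported mRNA (-0.67), with limma adjusted p-values of 0.0432, 0.0208 and 0.0463. Reads of POM121C and its near-identical copy POM121 can be shared, so the split between them is uncertain. RANBP2, the large SUMO ligase of the cytoplasmic filaments, averaged 3.83 ± 1.21 FPKM in sh-CFB and 4.84 ± 1.58 FPKM in sh-NC cells, and TPR, the main basket protein, 2.67 ± 0.871 FPKM in sh-CFB and 3.77 ± 1.57 FPKM in sh-NC cells (SD, n = 3 each). Neither passed (limma adjusted p = 0.558 for RANBP2 and 0.492 for TPR).

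In the Ran cycle 3 of 8 genes fell, with a median of -0.24. RAN, the GTPase that gives transport its direction, was at 75.9, 71.6 and 73.6 FPKM in sh-CFB and 105, 114 and 132 FPKM in sh-NC libraries. The groups were far apart, and RAN fell (log2 fold change -0.66, SE 0.11, limma adjusted p = 0.0153), but it did not pass after the GC and length correction (corrected log2 fold change -0.40, limma adjusted p = 0.239). RANBP1, which helps to free RanGTP from receptors, and RCC2, a relative of the exchange factor RCC1, fell with log2 fold changes of -0.74 and -0.60 (limma adjusted p = 0.0130 and 0.0306). RCC1, which charges Ran with GTP in the nucleus, averaged 66.8 ± 3.23 FPKM in sh-CFB and 68.4 ± 3.06 FPKM in sh-NC cells (SD, n = 3 each, limma adjusted p = 0.842). RANGAP1, which triggers hydrolysis on the cytoplasmic side, averaged 71.3 ± 8.83 FPKM in sh-CFB and 70.3 ± 6.68 FPKM in sh-NC cells (SD, n = 3 each, limma adjusted p = 0.941). Neither of those regulators passed, and in both the groups overlapped.

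Of 8 tested receptors with other names 1 fell, NXF1, the bulk mRNA exporter (log2 fold change -0.63, limma adjusted p = 0.0391), and the median was -0.33. CSE1L, which returns importin alpha to the cytoplasm, was at 8.74, 12.4 and 14.4 FPKM in sh-CFB and 20.2, 21.5 and 14.1 FPKM in sh-NC libraries (log2 fold change -0.64, SE 0.22, limma adjusted p = 0.117). The groups overlapped through sh-NC replicate 3 alone. Of 21 tested mRNA export genes 6 fell, with a median of -0.41. They were SRRT (-0.97), a partner of the cap-binding complex, ALYREF (-0.64), the adaptor that recruits NXF1, the THO subunits THOC3 (-0.55) and THOC5 (-0.52), CHTOP (-0.53) and the helicase DDX39A (-0.39), with limma adjusted p-values between 0.0133 and 0.0476. DDX39A and DDX39B are near copies, and their split is uncertain.

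In the nuclear lamina and envelope list 2 of 15 genes fell, LMNB1 (log2 fold change -0.88) and LMNB2 (-0.42), which encode the B-type lamins (limma adjusted p = 0.0194 and 0.0261), and the median was -0.17. LMNA, which encodes the A-type lamins, did not pass, at 234 ± 18.9 FPKM in sh-CFB and 190 ± 23.4 FPKM in sh-NC cells (SD, n = 3 each, limma adjusted p = 0.164). In the SUMO cycle list 2 of 9 fell, SUMO3 (-0.67) and SAE1 (-0.53), a modifier and a subunit of its activating enzyme (limma adjusted p = 0.0146 and 0.0135), and the median was -0.25. In the values as deposited no gene of the lists outside the pattern rose by limma or by voom, and LMNA was the one gene higher at an unadjusted p under 0.05. After the GC and length correction SUN1, an inner nuclear membrane protein gene, rose (corrected log2 fold change 0.41, limma adjusted p = 0.0254).

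Of 18 tested markers of proliferation, 11 fell and 7 did not pass, and the median log2 fold change was -0.78. MKI67, CCNA2, BUB1, TOP2A, AURKB, PLK1 and CDK1 did not pass, with log2 fold changes from -0.74 for MKI67 to -0.18 for CDK1. Those that fell were MCM2 to MCM7, PCNA, TYMS, RRM2, E2F1 and CCNB1. The lowest were MCM3 and MCM4, subunits of the replicative helicase, and PCNA, the clamp that holds the DNA polymerase, at -1.55, -1.41 and -1.40 (limma adjusted p = 0.00669, 0.00727 and 0.00377). The summed level of the list was 385 to 417 FPKM in sh-CFB and 659 to 722 FPKM in sh-NC libraries, and its 11 genes also fell after the GC and length correction. Of the other lists that correction left 2 of 3 calls among other pore genes, without RAE1, 2 of 3 in the Ran cycle, without RAN, and 3 of 6 in mRNA export, without THOC3, CHTOP and THOC5. It left 1 of 2 in the SUMO cycle, without SAE1, and kept NXF1, LMNB1 and LMNB2. Over all genes 6.07% fell after it. Without both replicate 1 libraries, 1 of 11 other pore genes, 3 of 8 Ran cycle genes and 0 of 8 receptors with other names fell. So did 5 of 21 mRNA export genes, 2 of 15 lamina and envelope genes, 2 of 9 SUMO cycle genes and 11 of 18 proliferation genes. The share over all tested genes was then 4.24%. By voom on recovered reads 2, 0, 0, 1, 1, 0 and 6 of them fell, in that order of lists, beside 2.21% of all tested genes. The part of proliferation, and that of the depth and base composition of the 2 libraries numbered 1, in the lower transport genes was not tested.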

How the data were processed

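The deposited table holds FPKM, made by the authors with 1 column per library and no pooling. The submitters' processing notes name FastQC 0.11.9 and Trimmomatic 0.39, the aligner STAR 2.7.3a, the counter featureCounts 2.0.1 and the build GRCh38. Per the labels' protocols, poly(A) RNA libraries were stranded. How strand was set, which annotation was used and how FPKM was computed is not given in the sources used here. Raw counts, which the labels mention, were not analysed here. With such counting, genes that overlap or have near copies can lose or share reads: pseudogenes of KPNA2, KPNA4, TNPO1, NUP50, IPO7, IPO5 and XPOT are in the table.

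Reads were recovered from the steps of the FPKM values and came out whole within 0.001 for 100.00% of genes. Library totals were inferred in the same way, and sums over genes lay above them, by 26626362 against 26230379 in sh-CFB replicate 1. Of values of 1 to 10 reads 63.5% were even, so both mates of a pair may have been counted as reads. Floors of 3 reads cover counting error only. Values were tested as log2(FPKM + 0.5), which understates changes of low genes, with limma 3.58.1 (trend) in R 4.3.3 without a block, for genes with a mean of at least 0.5 FPKM, adjusted over 12466 genes at 0.05. Symbols came from the name table with the reference (22492 of 28495 genes matched), and positions, gene types, GC and exon lengths from GENCODE 29. Correlations of log values were 0.975 to 0.991 within groups and 0.950 to 0.982 across. The correction fitted each library's deviations with splines of GC and log length (5 degrees of freedom) and an intercept, which also re-centred each library. Python 3.11.15 with numpy 2.4.6, pandas 2.3.3 and scipy 1.17.1 did the rest. Exons shared on the same strand with another gene in GENCODE 29 made up, among others, 17.0% of IPO11 (with LRRC70), 8.92% of KPNA6, 7.86% of NUP133 and 3.53% of NUP188. Exons of genes on the opposite strand overlapped others, such as 16.3% of KPNA1, 13.0% of NUP42 and 4.08% of XPO5. The main fit was also run on simulated reads with no GC or length effect between libraries, which does not measure its error here. Alternatives were other pseudocounts, filters, scalings and tests, a replicate block and leaving out libraries.

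The genes and lists were chosen with earlier results of these data known. Values in every library are given for each gene past the test, the most abundant of each role, the one nearest 0 and the highest of each class, those at 3 reads or fewer in a library, and NUP98. Of other lists, all changed genes up to 6 are named, or the 3 largest each way, plus RAN, RCC1, RANGAP1, CSE1L, RANBP2 and TPR.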

Additional observations from a re-analysis of the deposited data

How the results depend on the processing

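Over the 42 tested genes, pseudocounts of 0.1 and 1 and a filter of 1 FPKM left the same 6 genes past the test. KPNA2 and NUP188 passed in 15 of 19 settings, NUP93 in 12, IPO9 and XPO5 in 7 each and NUP85 in 6, and none of the 42 rose in any setting. With no filter, and with limma without its trend, KPNA2, NUP188 and NUP93 passed, so import receptors lower numbered 1 and export receptors 0 in both. Rescaling to equal totals also gave 1 import and 0 export receptors. Median-of-ratios factors gave 1 pore subunit, 1 import and 0 export receptors, quantile normalization 7 pore subunits, GC and length correction 6 and voom on recovered reads 1.

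Leaving out 1 library at a time gave 0 to 2 pore subunits, 0 to 2 import receptors and 0 to 1 export receptors. None of the 42 passed without sh-CFB replicate 2 or without sh-NC replicate 2, 3 passed without sh-CFB replicate 1, sh-CFB replicate 3 or sh-NC replicate 1, and 5 without sh-NC replicate 3. Without both replicate 1 libraries, a choice made after the data were seen, 1 import and 0 export receptors fell, and the medians were -0.31 for pore subunits, 0.09 for import receptors and 0.00 for all genes.

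Same-numbered libraries had correlations of deviations from their group means of -0.539, 0.068 and -0.448. Deviations from a group mean are tied to each other, so these values cannot settle whether same-numbered libraries were made together. With a replicate block 0 genes passed in either direction, over all genes and among pore subunits, import receptors and export receptors, and the same 0 held for the block with GC and length correction.

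Over all genes tested, the counts higher and lower were 68 and 256 with no filter, 68 and 138 with median-of-ratios factors and 96 and 435 without trend. Quantile normalization gave 465 higher and 636 lower, GC and length correction 586 higher and 753 lower, and voom 161 higher and 276 lower. Without 1 library the counts were 6 to 126 higher and 14 to 414 lower. The median of all genes was 0.02 with median-of-ratios factors, 0.01 with GC and length correction, with or without the block, and -0.01 with voom.

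Signs of log2 fold changes that turned belonged to genes that did not pass. IPO7 was 0.15 with median-of-ratios factors, 0.01 with quantile normalization, 0.13 with GC and length correction, with or without the block, 0.12 with voom, -0.32 to 0.15 without 1 library and 0.35 without both replicate 1 libraries. KPNA4 was 0.08, 0.07, 0.09, 0.06, -0.33 to 0.14 and 0.35 in the same order. IPO5 was 0.00 with GC and length correction, with or without the block, and 0.10 without both replicate 1 libraries. In that last setting IPO8 was 0.09, KPNA3 0.10, KPNB1 0.10, NUP58 0.13, TNPO1 0.33, XPO1 0.15 and XPO4 0.01. Without 1 library TNPO1 ranged over -0.52 to 0.11 and TNPO2 over -0.03 to 0.14. The cause was not tested. Few reads limit NUP210L, KPNA7 and IPO4, which had 17 reads or fewer in every library. For IPO4, reads that also fit AL136295.4 may have gone uncounted.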

Other observations

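Transcripts that start beside pore genes but do not code for protein were outside the comparison. NUP153-AS1, an antisense transcript at chr6:17706257-17707344 in GENCODE 29 on GRCh38, was at 16.4, 13.3 and 12.3 FPKM in sh-CFB and 9.02, 12.6 and 14.4 FPKM in sh-NC libraries, and its groups overlapped (log2 fold change 0.23, SE 0.19, limma adjusted p = 0.486). NUP50-DT, the divergent transcript of NUP50 at chr22:45133020-45163781, was at 1.18, 1.37 and 1.48 FPKM in sh-CFB and 2.09, 1.82 and 1.76 FPKM in sh-NC libraries without overlap (log2 fold change -0.37, SE 0.16, limma adjusted p = 0.182). Neither passed the test. Since the strand setting of the counting is not known, reads of antisense pairs cannot be told apart.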
